A study of Homo sapiens with 4 samples.

Results

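The long terminal repeats and internal proviral sequences described here are the repeat features whose family name begins with LTR, HERV or ERV, apart from names that begin with LTR12, LTR7 or HERVH. The choice used names only, and no measured value. It gave 162 of the 655 transposable element (TE) families in the deposited table, 377 of the 1383 classes (a class is a family at 1 position number), and 5667 of the 261609 loci. Of the families, 127 carry an LTR name and 35 carry the name of an internal sequence. The rule was applied letter by letter, so 7 families numbered between LTR71 and LTR79, with 6650 counts over all libraries, were left out together with LTR7.

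Single-cell RNA sequencing from the 5′ end of polyadenylated RNA was run on H1299, a line from a human non-small cell lung cancer, and on HCT116, a line from a human colorectal cancer. Control cells received the solvent DMSO and are called untreated here. Treated cells received 500 nM DAC (decitabine, an inhibitor of DNA methyltransferases) for 72 h and 500 nM SB939 (an inhibitor of histone deacetylases) for 18 h (together DAC+SB), in medium renewed every 24 h. All cells were at passage 5 to 10, and each combination of line and treatment was 1 library, so no difference below has a replicate check and no test was made.

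An endogenous retrovirus is the remnant of a retrovirus that entered the germ line. Its internal genes are flanked by a pair of copies of a long terminal repeat (LTR), which holds the promoter and the polyadenylation signal, and recombination between these copies leaves most insertions as a solitary LTR. Human families fall into class I (ERV1), the HERV-K group (ERVK) and the ERVL group, and in somatic cells most are held silent by DNA methylation and repressive chromatin. A 5′ method is suited to LTRs because it reads the RNA near the start that an LTR promoter would set.

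The libraries held 15289 cells, between 3578 and 4327 each, and 131 of 15158 barcode sequences occurred in 2 libraries. Summed gene and TE counts were 64524196 in untreated H1299, 62428673 in treated H1299, 62639099 in untreated HCT116 and 38927267 in treated HCT116. The median count per cell ran from 8449 in treated HCT116 to 17369.5 in untreated H1299, and the median mitochondrial share from 8.33% to 18.6%. The line labels were checked with 10 epithelial and 10 mesenchymal-type marker genes. The HCT116 list summed to 0.372 and 15.2 CPM (counts scaled to 1000000 per library) in H1299 (DMSO first) and 137 and 84.7 CPM in HCT116. The H1299 list summed to 3366 and 1295 CPM in H1299 and 158 and 333 CPM in HCT116. The sums ranked the lines as labelled under either treatment, though single genes did not all do so: with DAC+SB, 7 of 10 HCT116 markers were higher in HCT116 and 7 of 10 H1299 markers were higher in H1299.

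These LTR and HERV sequences had 16682 counts in untreated H1299, 41524 in treated H1299, 14265 in untreated HCT116 and 56054 in treated HCT116. Scaled to all gene and TE counts, that was 258.5 CPM (95% counting interval 254.6 to 262.5), 665 CPM (659 to 672), 228 CPM (224 to 232) and 1440 CPM (1428 to 1452). The untreated lines were thus close to each other, and treated HCT116 stood highest. They made up 13.01% of all TE counts in untreated H1299 and 2.15% in treated H1299, and 7.14% and 2.59% in HCT116. Their level was higher in the treated library of each line while their share of TE counts, which include the LTR12 names, was lower. Intervals here and below cover counting error only. They leave out unevenness between cells and say nothing of variation between cultures or library preparations.

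A class can be missing from a library without being at 0, so ratios were taken only over classes that both libraries of 1 line list, called shared classes. H1299 had 73 such classes in 55 families and HCT116 had 67 in 45 families. Over them, H1299 counts were 14284 with DMSO and 23735 with DAC+SB, a 1.72-fold higher level (log2 0.78, interval 0.75 to 0.81). HCT116 counts were 12091 and 38946, a 5.18-fold higher level (log2 2.37, 2.34 to 2.40). The HCT116 value moved to log2 1.43 over classes listed in all 4 libraries and to 3.79 without the leading locus of each family. The shared classes of all other TE were 15.8-fold higher in H1299 and 16.9-fold higher in HCT116. The other TE include the LTR12 names. In cells thinned at random to equal depth, LTR12 names had a mean of 0.646 and 67.4 counts per cell in H1299 (DMSO first). In HCT116 the means were 1.68 and 109. No ratio was taken for the other TE without LTR12, so how the LTR and HERV names compare with those TE was not tested. Over all listed classes the LTR and HERV ratios were 2.57-fold and 6.32-fold, because 125 classes with 17789 counts in H1299 and 164 classes with 17108 counts in HCT116 were listed only with DAC+SB.

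Families were counted as higher or lower at a ratio of at least 4-fold, among those that reached 100 shared-class counts in 1 library of the line. In H1299, 3 of 24 families (12.5%) were at least 4-fold higher with DAC+SB, beside 17.4% of all 144 TE families measured in the same way. In HCT116, 9 of 24 (37.5%) were higher, beside 36.9% of all 157 TE families. No LTR or HERV family in either line, and 0% of all TE families, was at least 4-fold lower. The share of families past this ratio was therefore near that of TE families at large. The median log2 ratio was 0.44 in H1299 (0.20 over all TE families) and 1.31 in HCT116 (1.38 over all).

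**Figure D1:**
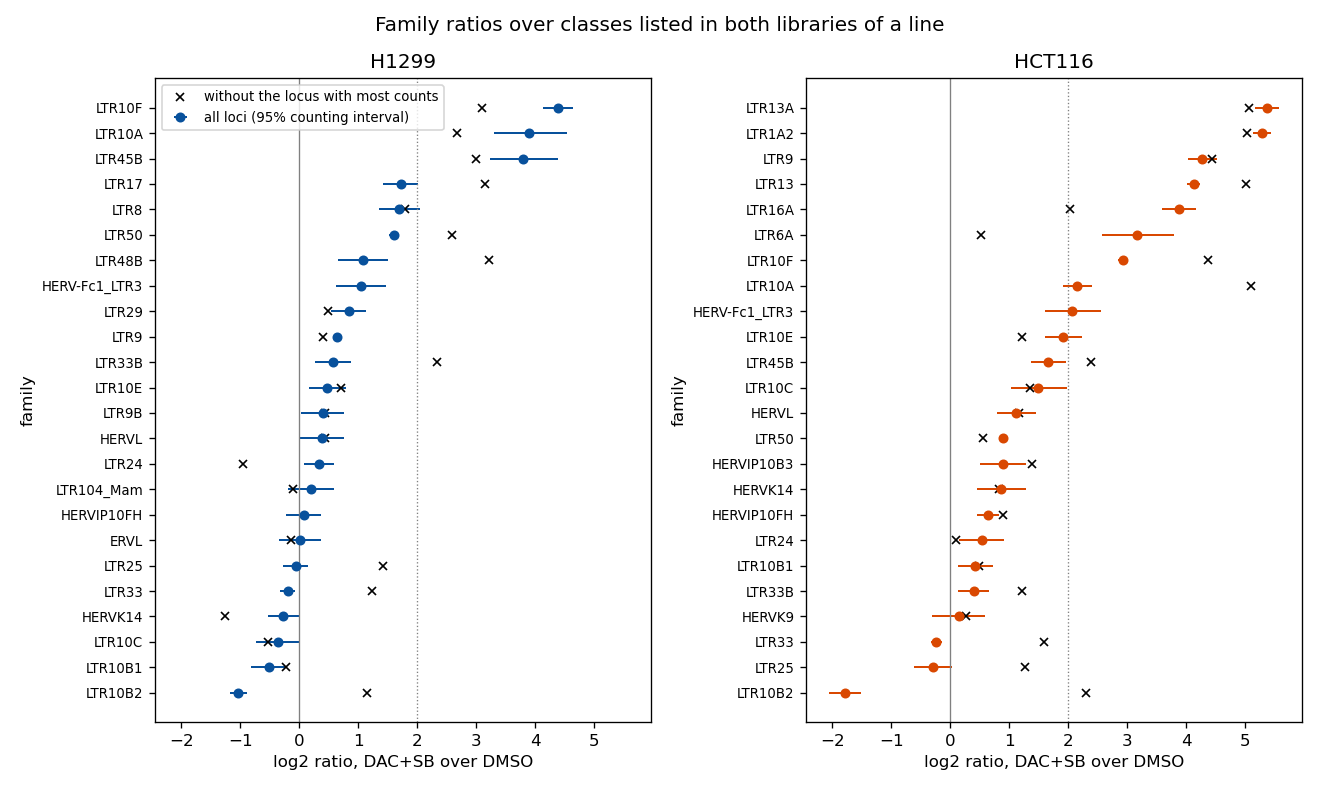
Log2 ratio of DAC+SB over DMSO (x axis) for the 24 families with at least 100 counts in each line (y axis). Points show all loci in shared classes with their 95% counting interval, crosses show the ratio after leaving out the single locus with most counts where other loci with counts in both libraries remained, and the dotted line marks the 4-fold ratio. In H1299, 3 points lie past it, and in HCT116, 9 do. For LTR10B2 and LTR33 the cross lies on the other side of 0 from the point in both lines.

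The order of the leading LTRs differed between the treated lines, though some were high in both. LTR9 led in treated H1299 and LTR1A2, LTR13 and LTR10F led in treated HCT116. In treated H1299, LTR1A2 was at 65.2 CPM and LTR10F at 46.8 CPM, whereas LTR13 was at 13.8 CPM. LTR9, a class I LTR, had 5887 counts in untreated H1299 (91.2 CPM), 8891 in treated H1299 (142 CPM), 145 in untreated HCT116 (2.31 CPM) and 1767 in treated HCT116 (45.4 CPM). It was thus the leading family in untreated H1299 and far lower in untreated HCT116. Over shared classes its log2 ratio was 0.64 (0.59 to 0.69) in H1299 and 4.28 (4.03 to 4.53) in HCT116.

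LTR50, an ERVL-type LTR, had 1678 and 4961 counts in H1299 (26.0 and 79.5 CPM, DMSO first) and 2416 and 2807 counts in HCT116 (38.6 and 72.1 CPM). It thus lay between 26.0 and 79.5 CPM in all 4 libraries, and its ratios were 3.06-fold in H1299 and 1.87-fold in HCT116. LTR1A2, a class I LTR, had 549, 4069, 338 and 8201 counts in the order untreated H1299, treated H1299, untreated HCT116 and treated HCT116. In HCT116 its shared classes were 39.0-fold higher with DAC+SB (log2 5.29, 5.13 to 5.45). In H1299 it has no ratio, since its DMSO counts were all at position number 8 and its DAC+SB counts were at other position numbers, 3343 of them at position 13. LTR1A2 locus 5864611 held 75.8% of the untreated H1299 counts, and went against the family with 416 counts there and 75 with DAC+SB.

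LTR10F belongs to the LTR10 group, a set of class I LTRs. Its counts were 135, 2924, 1431 and 6398 in the same order. Both treated libraries exceeded both untreated ones, and untreated HCT116 exceeded untreated H1299. The shared classes were 20.9-fold higher in H1299 (log2 4.39, 4.14 to 4.65) and 7.60-fold higher in HCT116 (log2 2.93, 2.84 to 3.01). Without its leading locus, 4802187, the log2 ratio was 3.11 in H1299 and 4.38 in HCT116.

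LTR13 and its relatives LTR13A and LTR13_ are ERVK-type LTRs, and they were prominent in treated HCT116. LTR13 was not listed in untreated H1299 and had 864 counts in treated H1299, 766 in untreated HCT116 and 7762 in treated HCT116. LTR13A had 28, 107, 204 and 5259 counts. LTR13_ was listed only in the treated libraries, with 269 counts in H1299 and 1151 in HCT116. The HCT116 ratio over shared classes was 17.5-fold for LTR13 (log2 4.13, 4.02 to 4.24, and 5.01 without locus 760447) and 41.5-fold for LTR13A (log2 5.37, 5.17 to 5.58). LTR13A had the highest ratio of the 24 HCT116 families.

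LTR8 had 91 and 286 counts in H1299 (3.25-fold), was not listed in untreated HCT116 and had 3062 counts in treated HCT116. LTR8B was listed only in treated HCT116, with 630 counts. LTR17, the LTR of the HERV-W group, had 391, 1587, 31 and 397 counts, with a shared-class ratio of 3.30-fold in H1299 (log2 1.72) and none in HCT116, where its DMSO and DAC+SB counts had no class in common. LTR17 locus 873731 held 82.6% of the family in untreated H1299, with 323 and 48 counts there, and without it the H1299 ratio was log2 3.14 (43 and 368 counts). The treated counts of these families were thus higher in HCT116 for LTR8 and higher in H1299 for LTR17.

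The other families among the highest ratios were smaller. LTR45B, a class I LTR, had 29 and 388 counts in H1299 (13.8-fold, log2 3.79) and 147 and 289 in HCT116 (log2 1.66). It was the third family past 4-fold in H1299, beside LTR10F and LTR10A. LTR6A had 57 and 62 counts in H1299 and 28 and 156 in HCT116 (log2 3.16), but locus 4987383 held 131 of the treated counts, and without it the ratio was log2 0.52 on 28 and 25 counts. HERV-Fc1_LTR3 had 71 and 142 counts in H1299 (log2 1.05) and 55 and 144 in HCT116 (log2 2.07), nearly all at locus 6190958. In H1299, LTR48B (71 and 245 counts) was at log2 1.08 over shared classes and LTR29 (149 and 258 counts) at 0.84, each mainly from 1 locus, and over classes listed in all 4 libraries LTR29 was at -0.043.

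**Figure D2:**
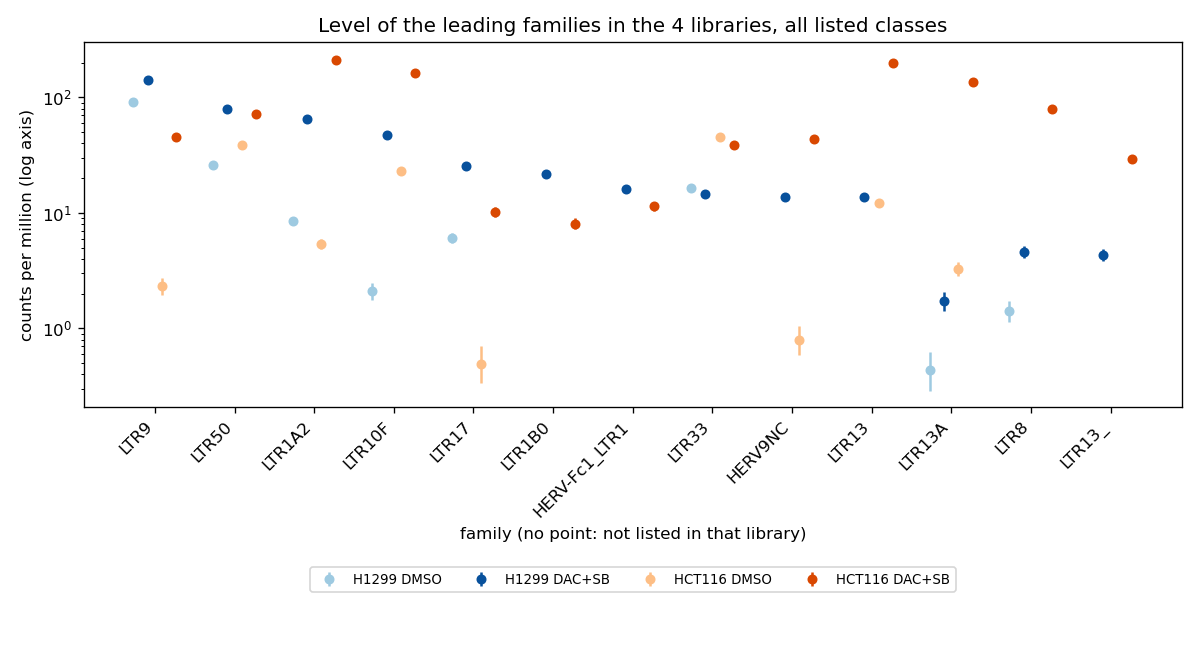
CPM on a log axis (y axis) for the families that were among the 10 with most counts in either treated library (x axis), over all listed classes. Points are single libraries with exact Poisson 95% intervals, and a missing point is a family not listed in that library. LTR9 was at 91.2 and 142 CPM in the H1299 libraries and at 2.31 and 45.4 CPM in HCT116, whereas LTR13A reached 135 CPM only in treated HCT116 and was at 3.26 CPM or below elsewhere.

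Several LTR families did not have higher levels with DAC+SB. LTR33, an ERVL-type LTR, had 1070 and 906 counts in H1299 and 2856 and 1513 in HCT116, which is 0.875-fold and 0.852-fold after scaling (log2 -0.19 and -0.23). LTR10B2 had 1165 and 573 counts in H1299 and 706 and 128 in HCT116, with log2 ratios of -1.03 (-1.18 to -0.88) and -1.78 (-2.06 to -1.50), the lowest of the 24 families in each line. The LTR25 ratio was log2 -0.06 (-0.27 to 0.15) for H1299 and log2 -0.28 (-0.61 to 0.04) for HCT116, and both intervals include 0. Over all listed classes, however, LTR25 in HCT116 had 637 and 227 counts and was at log2 -0.80. Its locus 6581887 had 607 and 114 of these. In H1299 all LTR25 counts, 398 and 370, were in shared classes. In H1299 a further 3 families were below 0, namely HERVK14 (-0.27), LTR10C (-0.35) and LTR10B1 (-0.51), and the LTR10C interval (-0.73 to 0.015) included 0. In all, 6 of 24 families were below 0 in H1299 and 3 of 24 in HCT116. Of the other ratios among the lowest 10, all above 0, those in H1299 were ERVL at 0.01, HERVIP10FH at 0.08, LTR104_Mam at 0.20 and LTR24 at 0.33. In HCT116 they were HERVK9 at 0.15, LTR33B at 0.40, LTR10B1 at 0.43, LTR24 at 0.53, HERVIP10FH at 0.65, HERVK14 at 0.87 and HERVIP10B3 at 0.90.

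Within the LTR10 group the ratios differed between families. All 9 LTR10 families were listed in every library. In H1299, 2 of the 6 with enough counts were at least 4-fold higher, LTR10F and LTR10A (14.8-fold). Of all TE families, 17.4% were in H1299 and 36.9% in HCT116. LTR10B2, LTR10B1 and LTR10C lay below 0 in H1299, but the LTR10C interval (-0.73 to 0.015) included 0. Over all listed classes LTR10C was at 0.115 and LTR10B1 at -0.11 there. Without its leading locus, LTR10B2 in H1299 was at 1.16. In HCT116, the same pair of families passed 4-fold, with LTR10A at 4.45-fold (log2 2.15). LTR10A in HCT116 did not pass over all listed classes (log2 1.91), and without locus 5056564, which held 88.3% of its untreated counts, it was at log2 5.10. LTR10E was 1.39-fold higher in H1299 and 3.77-fold in HCT116. Summed over the group, the H1299 log2 ratio was 1.15 (1.07 to 1.23) and the HCT116 log2 ratio was 2.21 (2.15 to 2.27).

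The ERVK list, made of LTR3, LTR5, LTR13, LTR14, LTR22 and HERVK names, stood high only in treated HCT116. Its level was 15.5 CPM in untreated H1299, 40.1 CPM in treated H1299, 26.8 CPM in untreated HCT116 and 399 CPM in treated HCT116. Over shared classes it had 843 and 614 counts in H1299 (log2 -0.41, -0.56 to -0.26) and 1492 and 13664 in HCT116 (log2 3.88, 3.80 to 3.96). No LTR13 class was shared in H1299, so the H1299 ratio leaves LTR13 out. Of its families with at least 100 shared-class counts, 0 of 1 in H1299 and 2 of 4 in HCT116 were at least 4-fold higher. Of all TE families, 17.4% and 36.9% were. HERVK13 in HCT116 (29 and 81 shared-class counts, 4.49-fold) and HERVK22 (61 and 99, 2.61-fold) fell below that minimum.

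The ERVL list was made of LTR16, LTR18, LTR33, LTR40, LTR41, LTR47, LTR50, LTR52, LTR53, LTR57, LTR66, LTR67, HERVL and ERVL names. It was at 57.8, 128, 109 and 192 CPM in the order untreated H1299, treated H1299, untreated HCT116 and treated HCT116. Its log2 ratios were 1.04 in H1299 and 0.66 in HCT116. Without the leading locus of each family they were 0.76 and 1.10, so the order of the lines depended on these loci. The list had 5 families with at least 100 shared-class counts in each line. Of these, 0 of 5 in H1299 and 1 of 5 in HCT116 were at least 4-fold higher, beside 17.4% and 36.9% of all TE families. The 1 family was LTR16A, which was not listed in untreated H1299, had 659 counts in treated H1299, and had 109 and 1105 counts in HCT116 (14.6-fold over shared classes, log2 3.87). LTR16A locus 3578916 held 81.7% and 85.2% of its HCT116 counts, and without it the ratio was log2 2.04 on 20 and 51 counts. LTR2 names, the LTR of the HERV-E group, stayed at 51 counts or below in every library.

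Internal sequences, which hold the former gag, pol and env genes, were lower in level than LTRs in every library. They held 2074, 5021, 1736 and 6910 counts, between 12.1% and 12.4% of all LTR and HERV counts. The share was thus nearly the same in the 4 libraries. Over shared classes, the H1299 log2 ratio was -0.01 (-0.12 to 0.09) for internal names and 0.85 for LTR names. In HCT116 it was 0.82 (0.72 to 0.93) for internal names and 2.49 for LTR names. Of internal families with at least 100 shared-class counts, 0 of 4 in H1299 and 0 of 5 in HCT116 were at least 4-fold higher. Of all TE families, 17.4% and 36.9% were, and with so few internal families no difference is read from this. HERVK13, below that minimum with 29 and 81 shared-class counts in HCT116, was 4.49-fold higher there. HERVK14 had 305, 241, 115 and 134 counts, HERVIP10FH had 191, 293, 474 and 513, and HERVL had 199, 160, 133 and 441.

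HERV9, HERV9N and HERV9NC are the internal parts of the provirus whose LTR is LTR12. Together they had 75 and 2122 counts in H1299 and 93 and 3787 in HCT116 (1.16, 34.0, 1.48 and 97.3 CPM). Nearly all of the treated counts lay in classes not listed with DMSO: only 1 class, with 30 and 41 counts, was shared in H1299, and none in HCT116. They were 2122 of the 5021 internal counts in treated H1299 and 3787 of the 6910 in treated HCT116, and most of them entered no ratio.

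Sequences listed only after treatment were the other large component. With at least 100 counts, 16 families in H1299 and 18 in HCT116 were listed only with DAC+SB, and 9 were so in both lines: HERV-Fc1_LTR1, HERV-Fc1_LTR2, LTR1, LTR13_, LTR16A2, LTR1B0, LTR68, LTR9A1 and LTR9D. HERV-Fc1_LTR1 had 1015 treated counts in H1299 and 445 in HCT116, LTR1B0 had 1350 and 314, and LTR1 had 599 and 605. In the other direction, 1 family of that size, LTR61 with 137 counts, was listed in H1299 only with DMSO, and 0 in HCT116. The matching numbers over all TE families are not given here, so these are a description only. Classes listed only with DAC+SB held 42.8% of treated H1299 counts and 30.5% of treated HCT116 counts. Classes listed only with DMSO held 14.4% and 15.2% of untreated counts. Shared classes held 23735 of the 41524 LTR and HERV counts in treated H1299 and 38946 of 56054 in treated HCT116. Shared classes of all other TE held 1457440 and 1874419 counts there. All TE together, these names included, had 1931478 and 2166262. An unlisted class is not known to be at 0, so no class listed with 1 treatment only is given as a ratio.

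The genes derived from such proviruses gave a mixed picture. ERVW-1, which encodes syncytin-1 and comes from the HERV-W group, had 1 count in untreated H1299, 317 in treated H1299, 1 in untreated HCT116 and 27 in treated HCT116. It was high only in the treated libraries, with log2 ratios of 8.36 and 5.44 that each rest on 1 DMSO count. ERVMER34-1, which encodes an envelope protein, had 11 and 180 counts in H1299 (log2 4.08) and 1351 and 573 in HCT116 (log2 -0.55). ERV3-1 had 227, 279, 111 and 57 counts, and ERVK3-1 had 3930, 3236, 2866 and 2707. Of the 11 genes in the list, ERVFRD-1 and ERVV-2 stayed at 36 counts or below and 5 had no count in any library. These values cover listed features only, so a 0 here is not a firm absence.

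Many of the abundant families were read mainly from 1 position number, though under 50% of them in each library. Of families with at least 100 counts, 11 of 23, 26 of 55, 10 of 23 and 25 of 55 had at least 75% of their counts in 1 class, in the order untreated H1299, treated H1299, untreated HCT116 and treated HCT116. Of these, 6, 14, 5 and 14 families had only 1 listed class. The sources used here do not say what the position number stands for. LTR10F at position 20 had 29, 2645, 1073 and 5676 counts, whereas LTR10F at position 5 in H1299 had 106 and 86. The treated excess of LTR10F in H1299 was thus at position 20 and not at position 5.

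LTR13 had 715 and 7762 counts at position 43 in HCT116, and all of its 864 treated H1299 counts were at the same position. LTR13A had 158 and 5146 counts at position 41 in HCT116. LTR9 at position 22 had 5181, 8108, 106 and 1513 counts. Among the 45 families with at least 100 counts in both treated libraries, the leading position was the same in the 2 lines for 31. That was so for 27 of 34 LTR names and for 4 of 11 internal names. The lines share loci, so these matches are not independent of one another.

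Outside treated HCT116, few loci carried much of the signal. With each library thinned to the depth of the shallowest, LTR and HERV counts came from 749 loci in untreated H1299, 1874 in treated H1299, 782 in untreated HCT116 and 3555 in treated HCT116. The 10 leading loci held 65.8% (64.8 to 66.7, Clopper-Pearson interval), 46.9% (46.3 to 47.5), 62.2% (61.2 to 63.2) and 26.2% (25.9 to 26.6) of the counts. Treated HCT116 was the most spread, with 46 loci needed to reach 50% of the counts, against 4, 14 and 5 in the other libraries. Over shared classes alone the numbers were 19 in treated HCT116, 3 in untreated H1299, 2 in treated H1299 and 4 in untreated HCT116, so treated H1299 needed more loci than untreated H1299 only when classes not listed with DMSO were counted. Loci carry numbers but no coordinates in the deposited table, so they were not placed in the genome or annotated.

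Single loci made up most of several families. A single locus held over 50% of the counts in 17 of 23 families with at least 100 counts in untreated H1299, 28 of 55 in treated H1299, 14 of 23 in untreated HCT116 and 25 of 55 in treated HCT116. LTR9 locus 3369383 had 4620, 7262, 98 and 1113 counts, which is 78.5%, 81.7%, 67.6% and 63.0% of the family. A second LTR9 locus, 3666137, had 1218 and 1281 counts in H1299 and 0 and 48 in HCT116. LTR50 locus 6012046 had 1665, 4885, 2232 and 2638 counts and held 98.5% of treated H1299 counts of its family. Without it, LTR50 in H1299 was at log2 2.60 on 13 and 76 counts. The locus was seen in 2343 of 3726 treated H1299 cells and 1638 of 4327 treated HCT116 cells without thinning, so it was not read from a few cells. LTR1B0 locus 4128687 had 1342 and 309 treated counts and held 99.4% and 98.4% of its family. HERV-Fc1_LTR1 locus 5507816 had 752 of 1015 treated H1299 counts, and HERVIP10FH locus 2440362 had 191, 193, 95 and 100 counts and was the only HERVIP10FH locus read in untreated H1299.

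LTR10F locus 4802187 had 0 counts in untreated H1299, 1630 in treated H1299, 1026 in untreated HCT116 and 2148 in treated HCT116. In H1299 it was at least 553-fold higher over shared classes, with the 0 set to 3 counts, and in HCT116 its log2 ratio was 1.75. This locus was thus already read in untreated HCT116. A second LTR10F locus, 1929183, had 3 and 677 counts in H1299, 619 of the latter in shared classes, and 11 and 218 in HCT116. In contrast, LTR10F locus 1658478 was lower with DAC+SB, with 144 and 21 counts in HCT116 (log2 -2.09).

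The leading ERVK-type loci of treated HCT116 were chosen by their treated counts, so low untreated counts among them follow in part from the choice and are given as a description. LTR13 locus 819962 had 0 counts with DMSO and 1439 with DAC+SB, at least 772-fold higher, and 9 counts in treated H1299. LTR13 locus 760447 had 407 and 1587 counts in HCT116 and 60 in treated H1299. LTR13A locus 2307773 had 10 and 1207 counts. Of the 13 LTR13A loci with at least 100 counts in HCT116, 7 had no DMSO count, and their log2 ratios ran from 2.81 to 8.76 with zeros set to 3 counts. None of these 13 loci reached 100 counts with DMSO. LTR1A2 had 17 loci chosen in the same way, 8 of them at 0 with DMSO and none at 100, led by locus 407195 with 0 and 1349 counts (at least 724-fold higher). These families were therefore read from many loci and not from a single one.

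The 2 families below 0 in both lines with intervals clear of 0, LTR33 and LTR10B2, each turned on a single locus. LTR33 locus 5764744 had 984 and 711 counts in H1299 and 2761 and 1335 in HCT116 (log2 -0.42 and -0.36). Without it, the LTR33 ratio was log2 1.23 in H1299 (86 and 195 counts) and 1.59 in HCT116 (95 and 178 counts). LTR10B2 locus 2727675 had 995 and 185 counts in H1299 and 691 and 82 in HCT116 (log2 -2.38 and -2.39). Without it, the LTR10B2 ratio was log2 1.16 in H1299 (170 and 367 counts) and 2.30 in HCT116 (15 and 46 counts). The summed remaining loci of both families were thus higher with DAC+SB, on few counts for LTR10B2 in HCT116. The LTR25 remainder was log2 1.43 in H1299 on 28 and 73 counts, and in HCT116 it was only 6 and 9 counts.

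Among loci that reached 100 shared-class counts in 1 library, 4 of 19 (21.1%) in H1299 and 58 of 72 (80.6%) in HCT116 were at least 4-fold higher with DAC+SB. Of all TE loci, with LTR12 loci not set apart, 90.7% of 1302 in H1299 and 94.2% of 1999 in HCT116 were. In the other direction, 1 locus in H1299 (5.26%) and 2 in HCT116 (2.78%) were at least 4-fold lower, all of them LTR10B2 or LTR10F, beside 0.154% and 0.35% of all TE loci. These counts leave out classes not listed in both libraries, and so miss loci that were lower as well as loci that were higher. Over all listed classes, LTR1A2 locus 5864611 had 416 and 75 counts in H1299 and LTR17 locus 873731 had 323 and 48. LTR18B locus 4585360 had 352 and 13 in HCT116. In the other direction, 17 and 55 LTR and HERV loci in H1299 had at least 100 counts (DMSO first), and 14 and 98 in HCT116. The 19 and 72 shared-class loci thus cover only some of them.

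The leading loci of the treated lines overlapped in part. Over the 125 classes listed in both treated libraries, 48 loci in H1299 and 94 in HCT116 had at least 100 counts, and 29 were in both lists. That is 60.4% (45.3 to 74.2) of the H1299 loci and 30.9% (21.7 to 41.2) of the HCT116 loci. Over all TE loci taken in the same way, 1205 were in both lists, or 74.6% of 1615 and 56.97% of 2115. With treated H1299 thinned to the depth of treated HCT116, 20 LTR and HERV loci were in both lists, 64.5% of 31 and 21.3% of 94, beside 83.0% and 46.2% over all TE loci. These shares describe 2 libraries of unequal depth, and no difference from TE loci at large was tested. Across the 113 loci in either list, log counts in the lines had a Pearson r of -0.03 and a Spearman rho of -0.15, given as a description over loci that were chosen for being high in at least 1 line. After scaling, 61 of the 113 (54%) were at least 4-fold higher in HCT116 and 5 (4.42%) were at least 4-fold higher in H1299. Of all 2525 TE loci chosen by the same minimum, 38.3% and 6.65% were.

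**Figure D3:**
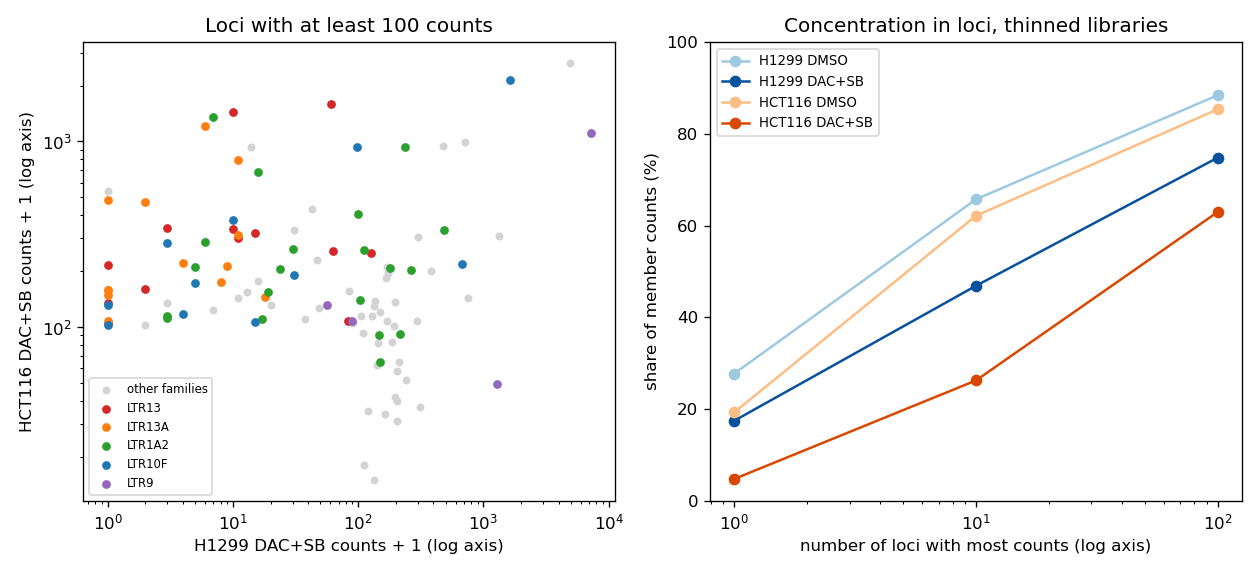
Left, counts + 1 in treated H1299 (x axis) and treated HCT116 (y axis), both on log axes, for the 113 loci with at least 100 counts in 1 or both, with 5 families coloured. Right, share of LTR and HERV counts (y axis, %) held by the 1, 10 and 100 loci with most counts (x axis, log) in each library thinned to equal depth. LTR13A loci lie at the left of the left panel, with few H1299 counts. In the right panel the 10 leading loci hold 65.8% of counts in untreated H1299 and 26.2% in treated HCT116.

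Locus numbers of HERV9 names lay close to those of LTR12 loci. Whether the numbers follow genome order is not stated in the sources used here. Of 307 HERV9-named loci, 304 (99.02%) were within 10 numbers of an LTR12 locus, against 169 of 5360 other LTR and HERV loci (3.15%). An LTR12 locus with at least 1000 treated counts was that close for 20 of 212 HERV9-named loci with 1 to 9 treated counts, 40 of 77 with 10 to 99, and 6 of 6 with at least 100. For the other names it was 2.56% of loci with at least 100 treated counts. These included LTR1B0 locus 4128687, 8 numbers from an LTR12C locus with 30222 counts in treated H1299, and LTR68 locus 1206812, 1 number from an LTR12C locus with 7269 counts there. Whether the 2 neighbours' counts come from 1 transcript was not tested.

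Per cell, these elements were read in most treated cells. With each cell thinned to 3300 counts, which left out 402 treated HCT116 cells, 56.0% (54.3 to 57.6) of untreated H1299 cells had at least 1 LTR or HERV count. The share was 84.6% (83.4 to 85.7) in treated H1299, 51.2% (49.6 to 52.9) in untreated HCT116 and 93.4% (92.5 to 94.1) in treated HCT116. Without thinning the shares were 95.9%, 99.2%, 93.0% and 98.5%. The thinned median was 1, 2, 1 and 4 counts, and the highest cell had 7, 13, 8 and 150. No cell type that lacks these elements was analysed, so the share that free RNA in the droplets would give is not known.

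The families differed in how many cells they reached. LTR1A2 was read in 2.18% (1.73 to 2.71) of thinned untreated H1299 cells, 18.5% (17.2 to 19.7) of treated H1299 cells, 1.67% (1.28 to 2.14) of untreated HCT116 cells and 42.4% (40.9 to 44.0) of treated HCT116 cells. LTR13 was read in 3.91% (3.30 to 4.59) of untreated HCT116 and 30.7% (29.3 to 32.2) of treated HCT116 cells. LTR9 was read in 24.5% (23.1 to 25.9) and 35.1% (33.6 to 36.7) of H1299 cells and in 0.629% (0.399 to 0.942) and 12.6% (11.5 to 13.6) of HCT116 cells. LTR33 went from 6.04% (5.28 to 6.87) to 4.29% (3.67 to 5.00) in H1299 and from 13.9% (12.8 to 15.1) to 11.3% (10.3 to 12.3) in HCT116.

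**Figure D4:**
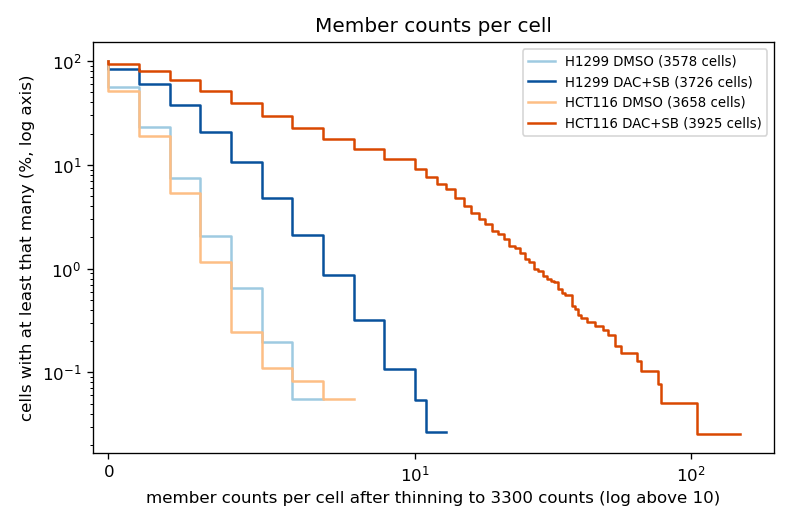
Share of cells (y axis, %, log) with at least the given number of LTR and HERV counts (x axis, linear to 10 and log above) after thinning each cell to 3300 counts, for the 4 libraries. The treated HCT116 curve has a long tail that reaches 150 counts in 1 cell, whereas no cell of the other libraries exceeded 13.

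In treated HCT116 a small number of cells held many counts of particular families. The variance of the thinned counts over cells divided by their mean, which is 1 for random sampling, was 7.69 for all LTR and HERV names, 6.05 for LTR10F, 4.15 for LTR13, 3.59 for LTR13A and 2.77 for LTR8. It was 1.82 for LTR1A2, the family with the highest level there (211 CPM), and 1.14 for LTR50, 1.06 for LTR33 and 1.16 for LTR9, which were at 72.1, 38.9 and 45.4 CPM. LTR8, at 78.7 CPM, was thus less even than LTR1A2 and LTR50. The 1% of cells with most counts held 8.85% of LTR and HERV counts, against 5.38%, 3.76% and 5.75% in untreated H1299, treated H1299 and untreated HCT116. Their share of LTR10F counts was 22.1%, against 26.9% in treated H1299 and 29.3% in untreated HCT116, where LTR10F was read in 8.40% and 6.26% of thinned cells against 28.7% in treated HCT116. In treated H1299 the same quotient was 1.37 for all names, 1.73 for LTR10F and 1.87 for LTR16A, which was at 1.64 in treated HCT116. For unevenly read families the quotient is also higher where the mean is higher. The LTR10F mean was 0.115 in treated H1299 and 0.551 in treated HCT116, so its quotients do not rank the libraries. Without thinning, LTR10F locus 4802187 had 1630 counts in 328 treated H1299 cells and 2148 in 1033 treated HCT116 cells. Uneven reading of LTR10F was thus not particular to treated HCT116.

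Several families were read more often in the cells with many LTR13 counts. Treated HCT116 had 325 cells with at least 3 thinned LTR13 counts and 2720 with none. LTR13A was read in 60.9% (55.4 to 66.3) of the former and 17.4% (16.0 to 18.9) of the latter. LTR10F was read in 55.7% (50.1 to 61.2) and 23.6% (22.1 to 25.3), LTR8 in 44.0% (38.5 to 49.6) and 12.3% (11.1 to 13.6), and LTR8B in 23.7% (19.2 to 28.7) and 1.65% (1.21 to 2.21). LTR1A2 was read in 65.5% (60.1 to 70.7) and 38.0% (36.2 to 39.9), and LTR9, an evenly spread family, in 20.9% (16.6 to 25.8) and 10.6% (9.49 to 11.8). LTR50, LTR33, HERV9NC and LTR16A had overlapping intervals, at 19.4% and 19.6%, 11.1% and 11.7%, 11.1% and 11.6%, and 6.15% and 7.32%. Before thinning, the cells with at least 3 LTR13 counts had a median of 7805 counts against 9331, a mitochondrial share of 18.4% against 17.6%, and a thinned median of 118 LTR12 counts against 78. The part of these differences in the pattern was not tested, and cells of 1 library are not replicates.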

How the data were processed

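The authors deposited counts, as whole numbers per feature and cell, in a gene table and a TE table. Per the labels' protocols, read 1 carries the barcode of the cell and a molecular identifier (UMI). Per the submitters' processing notes, STAR, CASAVA and the builds GRCh38 and hg38 were used, with no role given for each. Whether the counts are molecules, and what position and locus numbers mean, is not stated in those sources. Listed classes had at least 20 counts in their library, and no per-sample column was left unused (0).

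All 15289 cells were used and assigned to libraries by the library name that ends each cell name. Doublets were not called; leaving out the top 5% of cells by counts was an alternative. Each library's summed counts were scaled by its total over genes and TE. Ratios used classes that both libraries of 1 line list. Intervals are 95% exact Poisson, Clopper-Pearson or conditional binomial. The ratio intervals were tried only on counts simulated by Poisson sampling, the model they assume. That trial cannot show how they perform on counts that are uneven between cells. For calling loci past 4-fold, locus counts below 3 were set to 3, and for the lower bounds given, loci at 0 were set to 3 counts. Depths were equalised by random thinning for the concentration of counts in loci; loci of the treated lines were compared without thinning, with thinning as an alternative. No test was made, since each group is 1 library.

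The families named were the 10 with most counts in each treated library and members of the fixed lists. They were also the 10 highest and 10 lowest ratios per line among those with at least 100 shared-class counts. The loci named were the 5 with most counts in each treated library and some of those with over 50% of a named family's counts in a library. The rest are given as counts of families. LTR10F loci 1929183 and 1658478, LTR13A locus 2307773, LTR68 locus 1206812 and the families of the co-detection comparison were chosen after their values were seen. Families, lists and comparisons were chosen with earlier results of these data known. Work was done in Python 3.11.15 with pandas 2.3.3, numpy 2.4.6, scipy 1.17.1 and matplotlib 3.10.9. A marker gene's result is not reported here.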

Additional observations from a re-analysis of the deposited data

Results flagged for a closer look

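Of the 17 families with at least 100 shared-class counts in both lines, HERVK14 and LTR10B1 had ratios on opposite sides of 0 in the 2 lines. Their counting intervals were clear of 0 in each, though barely for HERVK14 in H1299 (-0.53 to -0.0078). These intervals leave out unevenness between cells. The log2 ratio of HERVK14, an internal ERVK sequence, was -0.27 in H1299 (274 and 220 counts over shared classes, DMSO first) and 0.87 in HCT116 (95 and 108 counts). Without its leading locus, HERVK14 in H1299 was at -1.25 on 54 and 22 counts. The log2 ratio of LTR10B1 was -0.51 in H1299 (232 and 158 counts) and 0.43 in HCT116 (209 and 175 counts). Over all listed classes, LTR10B1 in H1299 was at -0.11 (232 and 208 counts), and without its leading locus at -0.23 (86 and 71 counts), so its H1299 value depends on these choices. The difference between the lines was not tested, since each group was 1 library.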

How the results depend on the processing

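No paired analysis was possible because each group was 1 library and no test was made. The level of all LTR and HERV names stayed higher with DAC+SB under every alternative run. In H1299 its log2 ratio of 0.78 became 1.36 over all listed classes, 0.82 over classes listed in all 4 libraries, 0.82 with gene counts as the denominator, 0.94 without the leading locus of each family, 0.75 as a mean over cells, and 0.81 with LTR71 to LTR79 added, an alternative chosen after seeing the data. In HCT116 the 2.37 became 2.66, 1.43, 2.45, 3.79 and 2.49 under the first 5 of these, 2.41 without the 5% of cells with most counts and 2.31 without cells above 25% mitochondrial counts. Families at least 4-fold higher numbered 10 of 40 in H1299 and 23 of 39 in HCT116 over all listed classes (25% and 59.0%, beside 22.6% and 46.7% of all TE families), 1 of 5 and 5 of 7 at a minimum of 1000 counts (37.2% and 67.2% of all), 8 of 24 in H1299 at a 2-fold ratio (27.8% of all), and 5 of 17 in HCT116 over classes listed in all 4 libraries (31.2% of all). With treated H1299 thinned to the HCT116 depth, chosen after seeing the data, the share of HCT116 loci found in both treated lines was 21.3%. Over all listed classes, 1 of 39 families was at least 4-fold lower in HCT116, beside 1 of 199 TE families. It was LTR18B, with 356 and 25 counts (log2 -3.15), 352 and 13 of them at locus 4585360. At a 2-fold ratio 1 of 24 families in each line was lower, beside 3 of 144 TE families in H1299 and 1 of 157 in HCT116. Counted by class, 3 of 27 LTR and HERV classes in H1299 and 11 of 29 in HCT116 were at least 4-fold higher. In the other direction it was 0 of 27 and 1 of 29. The matching shares over all TE classes are not given here, so these are a description only. Over shared classes the 10 leading loci held 74.3%, 73.5%, 67.7% and 37.7% of counts, and the loci with a count numbered 432, 773 and 1563 in untreated H1299, treated H1299 and treated HCT116. Cells with a count made up 41.4%, 70.6%, 36.1% and 86.2% when thinned to 2000 counts, 95.9%, 99.2%, 93.0% and 98.5% without thinning, and 51.0%, 67.2%, 46.1% and 87.3% over shared classes. Of 372 values for single families, 18 changed sign, 10 of them for values whose own counting interval included 0 (ERVL, LTR10C, LTR104_Mam and LTR25 in H1299, HERVK9 and LTR25 in HCT116). The 8 with an interval clear of 0 included HERVL in H1299 (-0.27) and LTR33B in HCT116 (-0.16) over all classes. LTR29 in H1299 (-0.043) changed over classes listed in all 4 libraries. Without the leading locus, LTR10B2 (1.16 in H1299, 2.30 in HCT116) and LTR33 (1.23 and 1.59) changed. So did LTR24 in H1299 (-0.95), on only 2 and 1 counts. The cause was not tested. Leaving out 1 of the 5 leading loci moved the whole level to between 0.63 and 0.84 in H1299 and between 2.32 and 2.70 in HCT116.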
